A study of Mus musculus with 12 samples.

Results

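Cadherins and catenins were followed in dermal papilla (DP) cells of dMF1/2 mice, in which both Fgf receptor genes Fgfr1 and Fgfr2 are inactivated in the DP. The 8 genes were chosen by symbol as cadherins and catenins, with earlier results of these data known: the cadherins Cdh2, Cdh3, Cdh11 and Cdh13 and the catenins Ctnnb1, Ctnna1, Ctnnd1 and Jup. All 8 were present in the tables of both days, out of 15557 protein-coding genes listed at P14 or P16. The series held 12 RNA-seq libraries of sorted DP cells in 4 groups of 3, control and dMF1/2 at postnatal days P14 and P16, all labelled anagen. The mutants were Cor-cre/+ with both floxed copies of Fgfr1 and of Fgfr2, so Cre was driven from the Corin locus, which is active in the DP. The labels call the controls wild type, whereas the methods describe controls that carried Cor-cre with 1 floxed copy of each receptor gene, or no Cre with both genes homozygous floxed. Cells of both genotypes were sorted by YFP from a Cre-dependent reporter at the ROSA26 locus, which a control without Cre would not express. By that design the sorted controls carried Cor-cre and 1 floxed copy of each receptor gene, though the labels do not say so. Each library came from a single mouse, with 3 mice per group.

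Classical cadherins are transmembrane proteins that bind the same or a related cadherin on a neighboring cell. Inside the cell, p120-catenin (Ctnnd1) holds the cadherin at the membrane, beta-catenin (Ctnnb1) or plakoglobin (Jup) binds its tail, and alpha-catenin (Ctnna1) links that complex to actin. beta-catenin has a further role as the transcriptional effector of canonical Wnt signaling, and P-cadherin (Cdh3) is a cadherin of the hair follicle, best known from the matrix epithelium that borders the DP. Cdh13 is unusual in that it is anchored by a lipid and lacks the tail that binds catenins. In the deposited annotation (GRCm38), Cdh3 (ENSMUSG00000061048, chr8:106510913-106556908, plus strand) lies on the same chromosome as Cdh11 and Cdh13, and Ctnnb1 (ENSMUSG00000006932) spans chr9:120929216-120960507 on the plus strand. Each value below is the sum over all exons of a gene.

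Summed over the protein-coding genes with deposited values, the recovered reads numbered 19302358 to 29860750 per library. Fgfr1 ranged from 7745 to 9981 normalized reads in P14 control and from 6391 to 7405 in P14 dMF1/2, and from 8512 to 12517 in P16 control and from 6226 to 8015 in P16 dMF1/2, so the genotypes did not overlap at either day. The fit did not call Fgfr1 (limma, adjusted p = 0.501 at P14 and 0.130 at P16), and Fgfr2 overlapped between genotypes at both days. A deletion of some exons need not lower the count of a whole gene, so these values are a weak check of the labels. All 14 DP markers examined, among them Corin and Alpl, were detected in every group.

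Reads per kilobase of annotated exon were used to compare levels between genes, because a longer gene yields more reads. Cdh11 was the highest of 19 cadherins at both days in control, at 862 ± 79.2 normalized reads per kb at P14 and 847 ± 50.3 at P16 (SD, n = 3). The 19 were the 4 cadherins studied and the 15 genes of a list of other classical cadherins. Fat1 and the rest of the cadherin superfamily were not ranked. The lowest P14 library of Cdh11, at 813 reads per kb, lay below the highest of Cdh22, at 833, so those neighbors were not separated at P14. At P16 the lowest Cdh11 library, at 801, was above the highest of Cdh4, at 675. Cdh11, known as OB-cadherin, is typical of mesenchymal cells.

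Of the 4 cadherins studied, Cdh13 was next to Cdh11, at 93.6 ± 15.8 reads per kb at P14 and 121 ± 16.6 at P16, which was rank 5 and rank 4 of the 19. Cdh2, which encodes N-cadherin, stood at 64.5 ± 20.8 at P14 and 66.6 ± 18.7 at P16. The Cdh13 and Cdh2 libraries overlapped at P14 and not at P16, where the lowest Cdh13 library was at 102 and the highest Cdh2 library at 88.2. Cdh3 was the lowest of the 4, at 8.66 ± 3.00 per kb at P14 and 15.2 ± 1.37 at P16, which put it at rank 12 and rank 9 among the 19 cadherins. Its P14 range of 5.38 to 11.3 overlapped that of epithelial Cdh1, at 1.64 to 14.7, whereas at P16 its lowest control library, at 14.2, was above the highest of Cdh1, at 11.1. Neither rank was separated from its neighbors. At P14 the range overlapped those of Cdh24, at 8.67 to 9.53, and Cdh20, at 2.09 to 12.3. At P16 its range of 14.2 to 16.7 lay within those of Cdh18, at 13.4 to 36.7, and Cdh15, at 1.25 to 33.6.

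**Figure D1:**
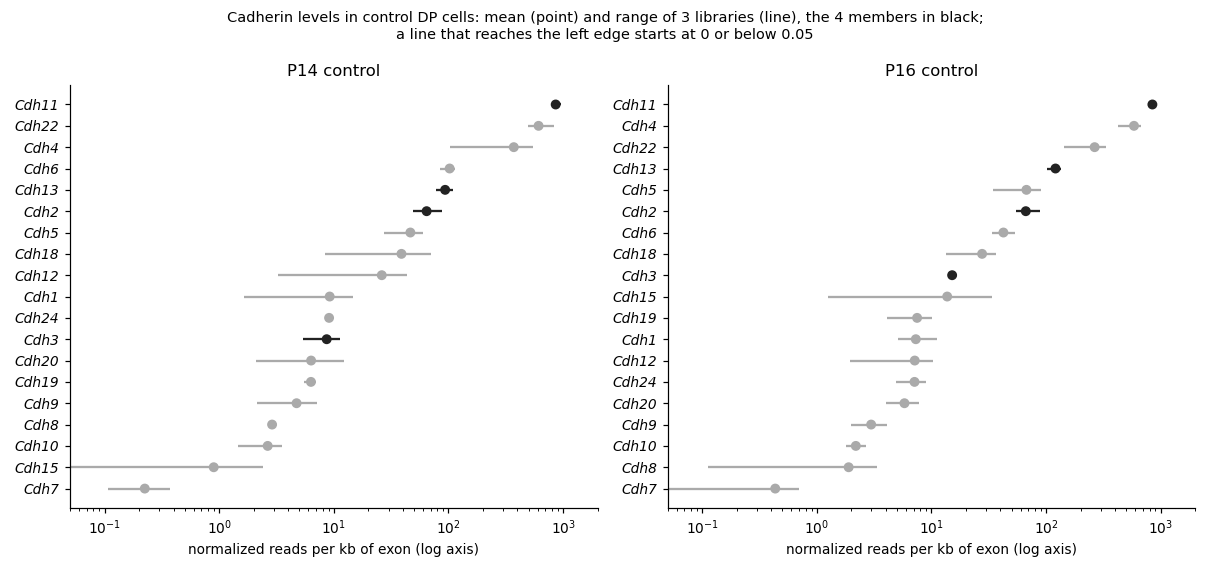
Normalized reads per kb of exon (log axis) for 19 cadherins in control DP cells at P14 and P16. Points are means and lines the range of 3 libraries, with the 4 studied cadherins in black. Cdh11 has the highest mean at both days, at 862 and 847, with libraries that overlap those of Cdh22 at P14. By mean, Cdh3 is at rank 12 at P14 and rank 9 at P16, and its range overlaps those of its neighbors at both days.

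As a share of the reads per kb of these 4 cadherins, Cdh11 made up 80.7% ± 0.708 in P16 control and 85.2% ± 0.846 in P16 dMF1/2. Cdh3 made up 1.45% ± 0.157 in P16 control, with a range of 1.28% to 1.60%, and 0.380% ± 0.128 in P16 dMF1/2, with a range of 0.243% to 0.497%. Cdh2 made up 6.35% ± 1.80 in P16 control, with a range of 5.12% to 8.42%, and 4.21% ± 0.411 in P16 dMF1/2, with a range of 3.74% to 4.48%. The shares of Cdh3, Cdh11 and Cdh2 thus did not overlap between genotypes at P16, while that of Cdh13 did. At P14 only the share of Cdh2 did not overlap, at 5.13% to 7.69% in control and 2.32% to 4.99% in dMF1/2.

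Among the catenins in control, Ctnnb1 was highest, at 2215 ± 217 normalized reads per kb at P14 and 3381 ± 389 at P16. Ctnna1 was next at 685 ± 42.9 and 724 ± 37.5, followed by Jup at 224 ± 29.3 and 232 ± 25.2. Ctnnd1 was lowest, at 67.9 ± 5.59 and 64.1 ± 8.22, and the libraries of these 4 genes did not overlap at either day. The place of Ctnnd1 is uncertain, because 4482 of its 7319 exonic bases (61.2%) are also annotated on the same strand to another protein-coding gene model, Gm28635, that the tables do not list. How the counting assigned those reads is not given in the sources used here.

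The first comparison asked how loss of the receptors altered these genes at P16. Cdh3 fell to 0.258 of its control level and Ctnnb1 to 0.634, while the other 6 genes did not pass the test. The 2 genes called make up 2 of 8 members, both lower in dMF1/2, where 4.32% of the 13457 genes tested were called in either direction and 2.14% were called lower. The median log2 difference of the 8 members was -0.21, against -0.0043 over all genes tested. With so few members, those counts describe the 8 genes and carry no test of their own.

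Cdh3 stood at 73.3, 62.2 and 63.9 normalized reads in the P16 control libraries and at 10.8, 22.4 and 18.0 in the P16 dMF1/2 libraries. Every mutant library was below every control library, and the lowest control library was far above the highest mutant one. The log2 difference was -1.95 with a standard error of 0.29 and a 95% interval from -2.62 to -1.28 (limma, Benjamini-Hochberg adjusted p = 0.0124). The gene is weakly covered: 207 reads in the 3 control libraries and 51 in the 3 mutant ones, with 10 to 84 reads in a library. Without P16 control replicate 3 the difference was -1.98 and no longer passed the test (adjusted p = 0.0551). It passed when any of the other 5 libraries was left out. With the replicate number as a block, which left-out fits did not use, the difference passed (limma, adjusted p = 0.00992). That fit called 10.4% of all genes.

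Keratinocyte markers were examined beside Cdh3, since follicle epithelium also makes P-cadherin. Of 24 such genes, 20 had values at P16, and their summed level was 745 to 1618 normalized reads in control and 1092 to 1345 in dMF1/2. The groups overlapped, none of the 15 markers tested was called at P16 (adjusted p over 0.05, limma), and 10 of the 15 had a positive log2 difference. The matrix and inner sheath keratins Krt25, Krt27 and Krt85 and the matrix regulator Foxn1 had no value at P16. Cdh1 stood at 33.4 ± 15.1 in P16 control and 31.4 ± 10.4 in P16 dMF1/2. The largest difference among the 15, in size, was that of Dlx3, a homeobox gene of the hair matrix, at 9.33 to 49.8 in control and 0 to 6.53 in dMF1/2 without overlap, with a log2 difference of -2.84 that did not pass (limma, adjusted p = 0.134). The part of such cells in the Cdh3 difference was not tested. In sorted bulk cells, fewer cells of one type and less RNA per cell cannot be told apart.

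Ctnnb1 stood at 15589, 17456 and 19623 normalized reads in the P16 control libraries and at 12425, 10213 and 10739 in the P16 dMF1/2 libraries. The groups did not overlap. The log2 difference was -0.66 with a standard error of 0.12 and a 95% interval from -0.94 to -0.37 (limma, adjusted p = 0.0275). The call was lost when any of 4 libraries was left out. Dropping control replicate 2 or 3 gave an adjusted p of 0.0528 or 0.0971, and dropping dMF1/2 replicate 2 or 3 gave 0.0807 or 0.109. The log2 differences of these fits lay between -0.57 and -0.66. They did not use the replicate number as a block. With that block and all 6 libraries the difference passed (limma, adjusted p = 0.0177). Of the exonic bases of Ctnnb1, 759 lie opposite an exon of Ulk4, and reads of both could be mixed if strand was not used in counting.

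Cdh2 stood at 712, 456 and 444 normalized reads in P16 control and at 366, 310 and 366 in P16 dMF1/2. The groups did not overlap, but control replicate 1 was well above the other 2. The log2 difference was -0.60 with a standard error of 0.18 and did not pass the test (limma, adjusted p = 0.119). Without control replicate 1 it was -0.38 (adjusted p = 0.187). With the replicate number as a block, the same difference passed (adjusted p = 0.0386), which makes 3 of 8 members against 10.4% of all genes in that fit. DESeq2 also called it (adjusted p = 0.0316) and edgeR did not (adjusted p = 0.104).

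Ctnna1 stood at 4376, 4824 and 4754 normalized reads in P16 control and at 3925, 3932 and 4175 in P16 dMF1/2. The groups did not overlap, though the gap between the nearest libraries was small. The log2 difference was -0.21 with a standard error of 0.08 (limma, adjusted p = 0.197). Complete separation with the mutant lower was thus seen for 4 of the 8 genes at P16, against 11.6% of all genes tested, and with 3 against 3 libraries the exact two-sided permutation p cannot go below 0.1.

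The remaining 4 genes overlapped between genotypes at P16. Cdh11 was the most even, at 7479, 8019 and 7130 in control and 7654, 7755 and 7882 in dMF1/2. Its log2 difference was 0.04, with a 95% interval from -0.15 to 0.24. Cdh13 differed by -0.21, with an interval from -0.50 to 0.08, and Jup by -0.16, with an interval from -0.40 to 0.07. Ctnnd1 was the only one of these besides Cdh11 with a positive estimate, 0.18, with an interval from -0.08 to 0.44. In every same-numbered pair Jup was lower and Ctnnd1 higher in dMF1/2, whereas the pairs of Cdh11 and Cdh13 went both ways. With the replicate number as a block neither Jup nor Ctnnd1 passed (limma, adjusted p = 0.188 and 0.260). Intervals of this width do not show that the genes were equal between genotypes.

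**Figure D2:**
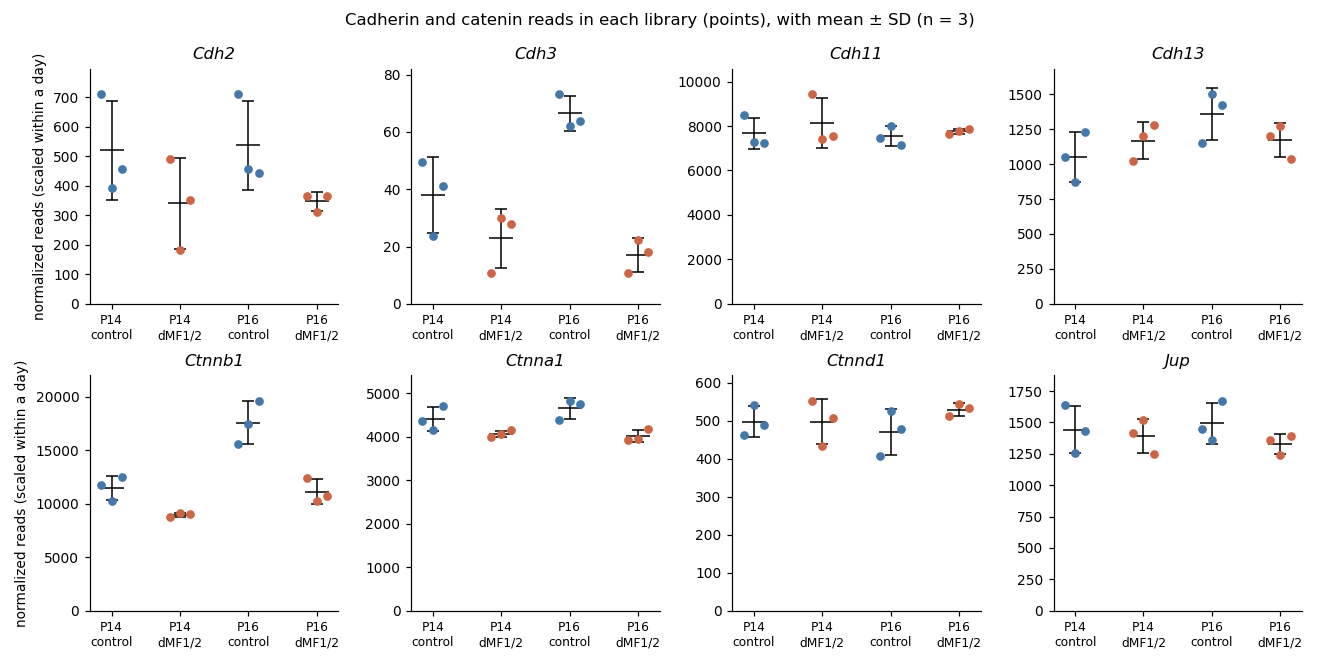
Normalized reads of the 8 genes in each of the 12 libraries (blue, control; orange, dMF1/2), with mean ± SD of 3 libraries. Each day was scaled on its own. At P16 Cdh3, Ctnnb1, Cdh2 and Ctnna1 separate by genotype, with Cdh3 at 62.2 or above in control and 22.4 or below in dMF1/2.

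Other features of the P16 libraries moved with genotype. All 10 genes of a dissociation stress list, which includes Fos and Atf3, had negative log2 differences at P16, and Atf3 was called; the summed level was 366745 to 510894 normalized reads in control and 327142 to 350858 in dMF1/2, without overlap. The summed DP markers were 59488 to 97394 in control and 98183 to 144325 in dMF1/2, also without overlap, with Alpl, Fgf10 and Prom1 called higher and Crabp1 called lower of 14. Endothelial markers had negative differences for 9 of 10 genes, with summed levels of 925 to 1943 and 992 to 1312 and no call. Melanocyte markers summed to 911 to 997 in control and 804 to 907 in dMF1/2, without overlap and with no call. Of the dermal sheath and smooth muscle markers, 8 of 8 had negative differences, with overlapping sums and no call. The Schwann and nerve marker Erbb3 was called lower, by -1.61 (adjusted p = 0.00841), and the dermal fibroblast marker Crabp2 higher, by 1.80 (adjusted p = 0.0104), with overlapping sums for both lists. The immune and skeletal muscle lists each had negative differences for 4 of 4 genes tested, with no call and overlapping sums. No list had a member at 0 in all libraries of a group. The part of these differences in the values of Cdh3 and Ctnnb1 was not tested.

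At P14 no member passed the test, where 0.0525% of 13334 genes were called. Neither DESeq2 nor edgeR called a member, and only Ctnnb1 had an unadjusted p under 0.05, as did 7.32% of all genes tested. Ctnnb1 stood at 11779, 10256 and 12461 normalized reads in P14 control and at 8746, 9090 and 8998 in P14 dMF1/2. The groups did not overlap, and the mutant libraries lay within a narrow range. The log2 difference was -0.36 with a standard error of 0.11 and an interval from -0.62 to -0.10 (limma, adjusted p = 0.479). Marker sums also varied within the P14 groups. Dermal fibroblast markers summed to 1371211 to 4288940 normalized reads in control and 1872094 to 4414509 in dMF1/2. Dissociation stress genes summed to 221748 to 368571 in control and 284021 to 289447 in dMF1/2. The part of that spread in the P14 estimates and in the comparison of days was not tested.

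Cdh3 overlapped between genotypes at P14, at 49.4, 23.6 and 41.0 in control and 10.9, 29.9 and 27.8 in dMF1/2. Its log2 difference of -0.76 had an interval from -1.85 to 0.32 (adjusted p = 0.846). Cdh2 stood at 711, 393 and 456 in control and at 489, 181 and 353 in dMF1/2. The groups overlapped, and the log2 difference of -0.67 had an interval from -1.56 to 0.22 (adjusted p = 0.824). In both genotypes the library numbered 1 was the highest and that numbered 2 the lowest, and the mutant was lower in 3 of 3 same-numbered pairs. With the replicate number as a block the difference still did not pass (adjusted p = 0.0873). Ctnna1 was 4154 to 4699 in control and 3989 to 4143 in dMF1/2, without overlap, at a log2 difference of -0.12. Full separation with the mutant lower was seen for Ctnnb1 and Ctnna1, 2 of 8 members, against 6.32% of all genes. Cdh11, Cdh13, Ctnnd1 and Jup overlapped, with estimates from -0.04 for Jup to 0.16 for Cdh13.

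**Figure D3:**
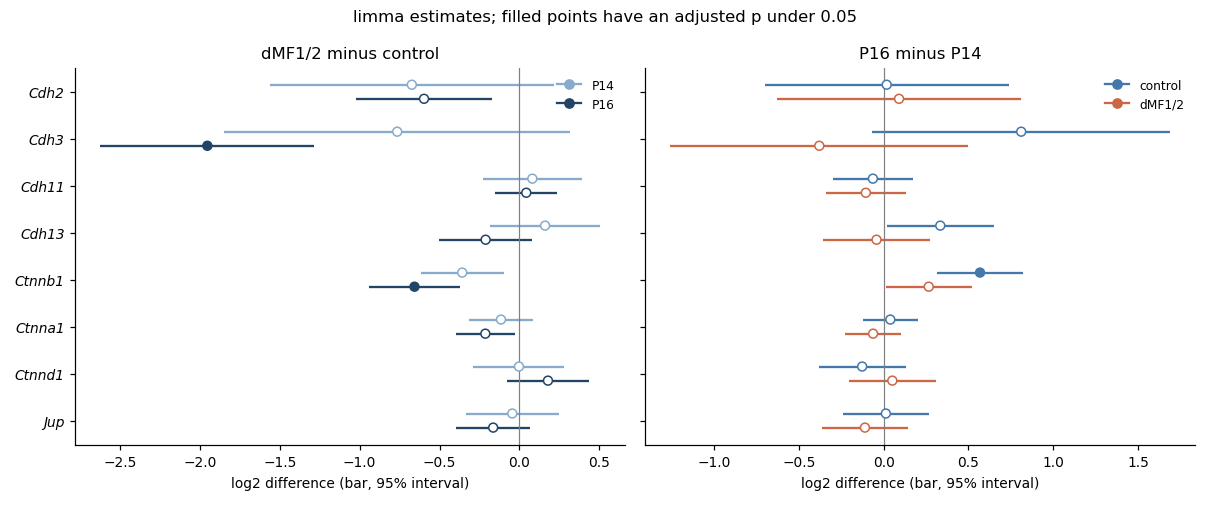
limma log2 differences with 95% intervals for dMF1/2 minus control (left, at P14 and P16) and for P16 minus P14 (right, in control and dMF1/2). Filled points passed an adjusted p of 0.05: Cdh3 at -1.95 and Ctnnb1 at -0.66 between genotypes at P16, and Ctnnb1 at 0.57 between days in control.

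The days were compared on reads rescaled together, since the tables of P14 and P16 had been normalized separately. In control, Ctnnb1 rose from 11652 ± 1138 rescaled reads at P14 to 17303 ± 2012 at P16. The log2 difference was 0.57 with a standard error of 0.12 and an interval from 0.31 to 0.82 (limma, adjusted p = 0.0110). It was the 1 member of 8 to pass, against 14.5% of 13415 genes called in either direction and 6.26% called higher. When the control libraries were fitted alone the same difference did not pass (adjusted p = 0.0554). Marker genes of several lists also changed between days in control. Of 14 DP markers 5 were called lower at P16, among them Corin by -2.22 and Alpl by -1.97, and 10 of 14 differences were negative. Of 10 endothelial markers tested, 3 were called higher and 1 lower, with 8 positive differences and a median of 1.43. Of 10 dissociation stress genes 3 were called higher, among them Atf3 by 1.05, with 9 positive, and of 4 melanocyte markers tested 2 were called higher. Single markers of keratinocytes (Msx2) and dermal fibroblasts (Crabp2) were called lower. The part of these differences in the value of Ctnnb1 was not tested. In dMF1/2 Ctnnb1 went from 9043 ± 157 to 10909 ± 1101, a log2 difference of 0.27 that did not pass (adjusted p = 0.197).

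Cdh3 went from 38.5 ± 13.3 rescaled reads at P14 to 65.5 ± 5.94 at P16 in control, and from 23.1 ± 10.5 to 16.7 ± 5.78 in dMF1/2. The log2 differences were 0.81 (adjusted p = 0.188) and -0.38 (adjusted p = 0.631), so neither passed. Cdh13 went from 1065 ± 179 to 1339 ± 183 in control, with a log2 difference of 0.33 (adjusted p = 0.137), and from 1182 ± 129 to 1147 ± 120 in dMF1/2. The estimates of the other 5 members lay between -0.13 and 0.09 in both genotypes. No member was called between days in dMF1/2 by limma, DESeq2 or edgeR, where 5.8% of genes were called by limma, and Ctnnb1 alone had an unadjusted p under 0.05, as did 22.8% of genes.

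Whether the change between days differed with genotype was tested directly. The interaction estimate was -1.19 for Cdh3, with an interval from -2.43 to 0.05, -0.30 for Ctnnb1, with an interval from -0.66 to 0.06, and -0.38 for Cdh13, with an interval from -0.82 to 0.07. Their unadjusted p-values in the limma fit were 0.0587, 0.0908 and 0.0916, and none passed. The background was 0.0% in that fit: limma and edgeR called 0 of 13415 genes, limma gave 648 (4.83%) with an unadjusted p under 0.05, none of them a member, and DESeq2 called 7, none of them a member. A genotype difference at P16 that is larger than that at P14 was therefore not shown for any member.

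Ratios within a library do not depend on the scaling between libraries, and 6 were compared at each of the 2 days. The log2 ratio of Ctnnb1 to Ctnna1 was 1.91 ± 0.12 in P16 control and 1.47 ± 0.17 in P16 dMF1/2 (SD, n = 3), a difference of -0.44 without overlap. At P14 the corresponding values were 1.38 ± 0.07 and 1.14 ± 0.02, a difference of -0.24, also without overlap. beta-catenin transcripts were thus lower relative to those of its actin-linking partner in all 6 mutant libraries than in any control library of the same day.

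The ratio of Jup to Ctnnb1, the pair that can take each other's place at the cadherin tail, was -3.55 ± 0.13 on the log2 scale in P16 control and -3.06 ± 0.12 in P16 dMF1/2. At P14 it was -3.00 ± 0.14 and -2.68 ± 0.14, and the nearest libraries of the 2 genotypes were both at -2.85 when rounded. Jup itself did not pass the test at either day. Cdh3 relative to Cdh2 was -2.98 ± 0.26 in P16 control and -4.41 ± 0.65 in P16 dMF1/2, a difference of -1.42 without overlap. At P14 that ratio overlapped, at -3.80 ± 0.29 and -3.92 ± 1.46, with the widest spread among the mutant libraries. Cdh11 relative to Cdh2 was higher in dMF1/2 by 0.76 at P14 and 0.64 at P16 without overlap, and Ctnnd1 relative to Ctnna1 by 0.39 at P16 without overlap, whereas Cdh13 relative to Cdh2 overlapped at both days. Each ratio without overlap had an exact two-sided permutation p of 0.1, the smallest that 3 against 3 allows, and 0.15 after adjustment over the 12 tests.

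**Figure D4:**
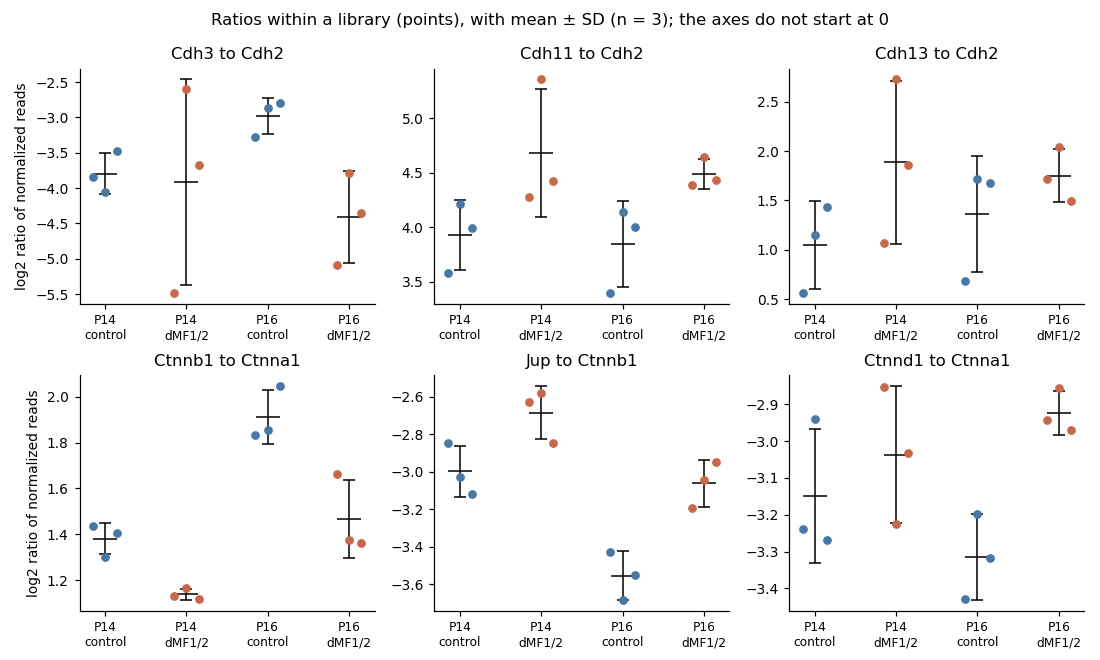
log2 ratios of normalized reads between pairs of members in each library (blue, control; orange, dMF1/2), with mean ± SD of 3 libraries and axes that do not start at 0. Ctnnb1 to Ctnna1 separates by genotype at both days, by -0.24 at P14 and -0.44 at P16, whereas Cdh3 to Cdh2 separates at P16 alone.

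RefSeq promoter sequences were matched by symbol for 3 of the 8 members, Ctnnb1, Jup and Ctnnd1. Those of Ctnnb1 and Jup are shown as the pair of related catenins of which one was called at P16 and the other was not. Each is the 250 bases before a RefSeq start site in build GRCm38.p6, written 5′ to 3′ on the strand of the gene. Capitals mark the GC box GGGCGG and the CCAAT box CCAAT, promoter elements searched on both strands, and no 2 matches overlapped.

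Ctnnb1, chr9:120933150-120933399, plus strand: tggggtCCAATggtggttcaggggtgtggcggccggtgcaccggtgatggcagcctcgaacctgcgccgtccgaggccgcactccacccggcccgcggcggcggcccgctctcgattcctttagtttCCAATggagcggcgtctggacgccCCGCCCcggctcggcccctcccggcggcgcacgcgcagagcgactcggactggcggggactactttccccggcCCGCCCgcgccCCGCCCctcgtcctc

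Jup, chr11:100397791-100398040, minus strand: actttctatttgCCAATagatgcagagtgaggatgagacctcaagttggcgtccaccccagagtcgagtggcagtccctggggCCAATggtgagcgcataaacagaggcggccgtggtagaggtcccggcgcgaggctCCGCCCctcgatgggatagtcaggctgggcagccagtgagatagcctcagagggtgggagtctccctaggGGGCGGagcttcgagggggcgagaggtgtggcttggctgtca

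The Ctnnb1 window held 3 GC boxes and 2 CCAAT boxes, and the Jup window held 2 of each. A second Ctnnb1 start site is listed, and the window before it, which overlaps the one shown, held 2 GC boxes and 0 CCAAT boxes. A GC box occurred in 32.7% and a CCAAT box in 33.8% of the 32851 windows of this length in the RefSeq set. None of these 3 windows held the TCF/LEF site CTTTGAT (3.21% of windows), the E-box CACCTG (17.2%), the AP-1 site TGAGTCA (4.46%) or the ETS site CCGGAAG (6.91%), on either strand. The absence of these letters from a short window says nothing of the factors.

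The wider adhesion machinery was examined in 8 gene lists with 123 genes besides the members, of which 115 had a row in the tables. At P16 limma called 11 of the 108 genes tested, or 10.2%, with 6 higher and 5 lower in dMF1/2, against 4.32% of all genes. DESeq2 called 24 of these genes, where it called 8.51% of all genes, and edgeR called 10, where it called 4.48%. The fit with the replicate block called 21, where 10.4% of all genes were called. At P14 limma called 0 of 107, edgeR called 0 and DESeq2 called 2, where it called 1.55% of all genes. At an unadjusted p under 0.05 in the limma fit, 4 were higher and 10 lower, against 7.32% of all genes.

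Of 15 other classical cadherins, 14 were tested at P16, where 2 were higher and none was lower. Cdh12, a cadherin known from neurons, was at 12.2 to 65.3 normalized reads in control and 192 to 626 in dMF1/2, a log2 difference of 3.32 (adjusted p = 0.0299). Cdh22 was at 533 to 1228 in control and 2105 to 3139 in dMF1/2, a log2 difference of 1.41 (adjusted p = 0.0472). The median log2 difference of the list was 0.42. The 2 genes thus differed in the direction opposite to Cdh3, and their control and mutant libraries did not overlap. Cdh4 (R-cadherin), the second highest of the ranked cadherins per kb in P16 control, was at 3109 to 4895 reads in control and 2588 to 4920 in dMF1/2 and did not pass.

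Among 16 tested genes of the other cadherin superfamily, Clstn2, a calsyntenin, was higher by 2.30 on the log2 scale (adjusted p = 0.0267). Dchs2, a large cadherin of the dachsous family, was lower, at 1610 to 2158 normalized reads in control and 555 to 987 in dMF1/2, a log2 difference of -1.48 (adjusted p = 0.0113). Fat1 had the highest mean of all listed genes, 23214 at P16, and did not pass (adjusted p = 0.129). Of 12 non-clustered protocadherins, Pcdh11x was higher by 2.24 (adjusted p = 0.00657). Pcdh15 was lower, at 156 to 337 reads in control and 22.7 to 32.8 in dMF1/2, a log2 difference of -2.86 (adjusted p = 0.00502). The superfamily members that passed were thus split in direction.

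The 8 other catenins and catenin binders, which include Ctnna2, Ctnnd2 and Ctnnal1, had no call at P16 by limma, with 1 higher and 0 lower at an unadjusted p under 0.05, where 19.0% of all genes lay. Of 14 desmosome genes, 12 had a row and 7 were tested at P16. Dsc2, a desmosomal cadherin, was lower, at 76.8 to 122 normalized reads in control and 7.57 to 14.9 in dMF1/2, a log2 difference of -2.93 (adjusted p = 0.00502). The other 6 desmosome genes tested did not pass, and the list shares Perp, Pkp1, Dsp and Dsg3 with the keratinocyte markers but not Dsc2.

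Of 21 tested genes that link the complex to actin or belong to the nectin system, Vasp, which promotes actin filament growth, was lower by -0.56 (adjusted p = 0.0243). Shroom3, a regulator of apical constriction, was higher by 1.35 (adjusted p = 0.0496). None of the 21 genes of cadherin turnover and phosphorylation passed at P16 in the limma fit, with 1 higher and 4 lower at an unadjusted p under 0.05, against the same 19.0% of all genes. Among 9 tested regulators of cadherin transcription, Twist1 was lower by -0.67 (adjusted p = 0.0169) and Zeb2 was higher by 0.47 (adjusted p = 0.0316). Both encode factors known to repress Cdh1, and Zeb2 and Prrx1 had the next highest means of the listed genes after Fat1, at 13365 and 11462.

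Pcdh15, Dsc2 and Pcdh11x were called whichever of the 6 libraries was left out. Dchs2 was not called without control replicate 3 (adjusted p = 0.0539). The other 7 were not called without dMF1/2 replicate 3, with adjusted p from 0.0749 for Twist1 to 0.160 for Shroom3, but none of them rested on that library alone. The number of libraries whose omission ended the call was 3 of 6 for Twist1, Vasp, Clstn2 and Cdh12, 4 for Cdh22, 5 for Shroom3 and 6 for Zeb2.

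**Figure D5:**
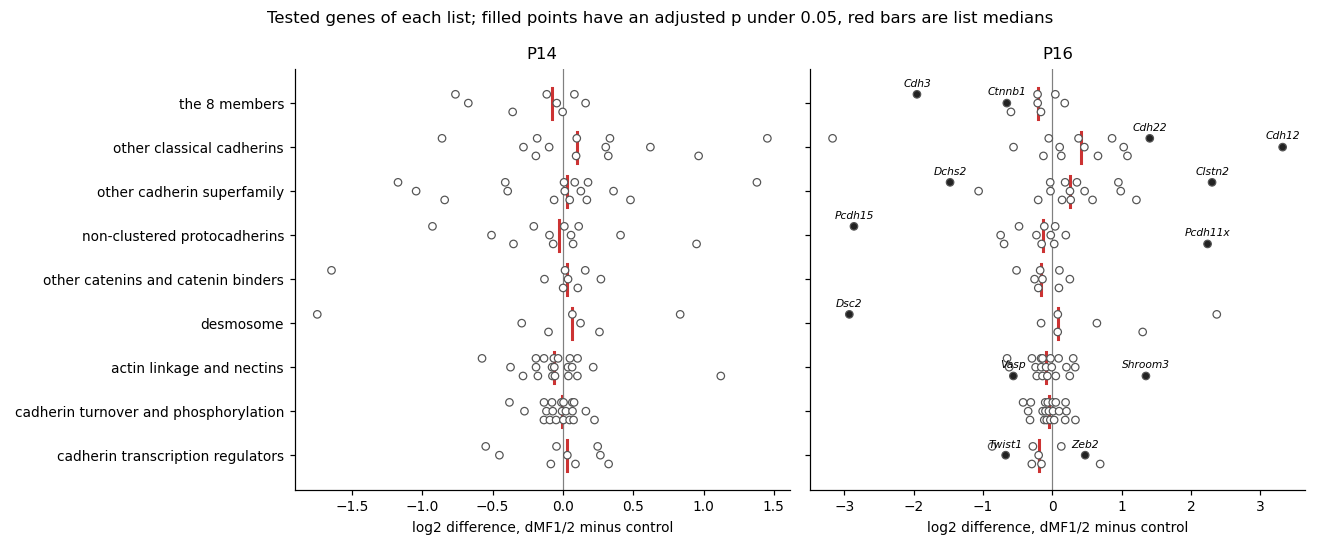
log2 differences (dMF1/2 minus control) of the 8 members and of the tested genes of 8 adhesion lists at P14 and P16, with red bars at list medians. Filled points passed an adjusted p of 0.05; at P16 these are Cdh3, Ctnnb1 and 11 listed genes, from -2.93 for Dsc2 to 3.32 for Cdh12, and at P14 none. The axes of the days differ in range.

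Between P14 and P16 in control, limma called 13 of 108 listed genes (7 higher and 6 lower), against 14.5% of all genes. Dchs2 was higher at P16 by 1.60 (adjusted p = 0.00474) and Pcdh15 by 1.74 (adjusted p = 0.0349). Cdh22 was lower at P16 by -1.29 (adjusted p = 0.0310), Pcdh11x by -1.43 (adjusted p = 0.0267) and Cdh6, a cadherin known from kidney, by -1.32 (adjusted p = 0.00575). Dchs2 and Cdh6 were called whichever of the 12 libraries was left out. The call was lost in 3 of 12 such fits for Cdh22 and in 4 each for Pcdh11x and Pcdh15. The largest adjusted p was 0.113 for Cdh22 and 0.0982 for Pcdh11x, both without P14 control replicate 1, and 0.130 for Pcdh15 without P16 control replicate 1. These differences use the same P16 control libraries as the genotype comparison at P16, so they are given side by side and not as a second line of evidence. In dMF1/2 the count was 2 of 108, against 5.8% of all genes, with Zyx (zyxin) lower and Rab5a higher at P16. Both were also called in the same direction in control, Zyx by -0.73 (adjusted p = 0.00307) and Rab5a by 0.41 (adjusted p = 0.0260). The control call of Zyx held whichever of the 12 libraries was left out. That of Rab5a was lost in 3 of 12 such fits, at an adjusted p of up to 0.0873 without P16 control replicate 3. In dMF1/2 Zyx was called whichever of the 12 libraries was left out, whereas Rab5a was not called in 11 of those 12 fits, at an adjusted p of up to 0.149 without P16 dMF1/2 replicate 3.

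The genes whose levels were most like those of Cdh3 across the 12 libraries were Dusp6 (Pearson r = 0.93), Gm16286 (0.91), Cst3 (0.90), Mif (0.90) and Plvap (0.90), among 10239 genes with a mean of at least 100 rescaled reads. Dusp6, which encodes a phosphatase of ERK, averaged 726 rescaled reads in P16 control and 366 in P16 dMF1/2. Plvap, a gene of endothelial cells that was not in the endothelial list, averaged 485 in P16 control and 182 in P16 dMF1/2 and was called at P16, with a log2 difference of -1.42 (limma, adjusted p = 0.00508). Those most like Ctnnb1 were Ptprg (0.98), Slc12a1 (0.95), Myo10 (0.95), Map3k6 (0.95) and Rasa3 (0.95). Slc12a1 averaged 502 rescaled reads in P14 control and 4446 in P16 control, and 70.4 and 558 in the dMF1/2 groups. These correlations describe 12 libraries that fall into 4 groups and share their group differences, and they say nothing of common control.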

How the data were processed

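RNA was measured in 12 libraries of sorted DP cells. The authors depleted ribosomal RNA, made stranded libraries, trimmed reads with Trimmomatic, aligned them with Tophat 2 to mm10 and counted them per Ensembl gene (GRCm38.p4) with HTSeq-count. The deposited values are a signal: reads divided by DESeq2 size factors, separately for each day, for protein-coding genes with a mean above 2. All values gave whole reads within a tolerance of 0.01. The strand setting of the counting is not given in the sources used here. The deposited tables also hold columns of the authors' own fold changes and p-values, which were not used.

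Groups came from the sample labels. Genes with a mean of at least 10 were tested with limma (version 3.58.1, R 4.3.3) on log2(value + 1) with a trend, so fold changes of low genes are understated, and p-values were adjusted over all genes tested by Benjamini-Hochberg with a threshold of 0.05. Days were compared on recovered reads of 14986 genes present in both tables, rescaled by the median of ratios, in 1 model of 4 groups. Alternatives were edgeR 4.0.16, DESeq2 1.42.0, other pseudocounts, filters and scalings, left-out libraries and the replicate number as a block. The fit was tested on simulated data. Exon lengths came from GENCODE vM21. Libraries with the same number deviated together within each day (r from 0.256 to 0.586 in all 6 same-numbered pairs), which is a pairing seen in the data. The members, the lists and the tests were chosen with earlier results of these data known. Named from the lists were genes called between genotypes, at most 12, and the 3 with the highest mean; Cdh1, Cdh4, Dlx3 and the genes given between days were added after their values were seen, as were the promoter motifs.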

Additional observations from a re-analysis of the deposited data

How the results depend on the processing

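At P16 the members called numbered 2 under every alternative except DESeq2, the replicate block and edgeR with the replicate block, a fit chosen after seeing the data, which added Cdh2 and gave 3. With 1 library left out they numbered 0 to 2 at P16 and 0 at P14. Between days in control the count was 1, with 0 when the compared libraries were fitted alone. The count in dMF1/2 and for the interaction stayed at 0. Over all genes the counts moved more. At P14 the 7 genes called became 207 with DESeq2, 224 with the replicate block, 245 with edgeR and the block, and 11 in the joint fit of 12 libraries. At P16 the 582 became 1123, 1403 and 1439 in the first 3 of these fits. Between days, fitting the compared libraries alone gave 806 in control and 322 in dMF1/2, DESeq2 gave 1341 in dMF1/2, and DESeq2 gave 7 for the interaction. With 1 library left out the counts ran from 0 to 18 at P14, 149 to 684 at P16, 693 to 2129 and 257 to 861 between days in control and dMF1/2, and 0 to 2 for the interaction.

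Signs turned only for estimates close to 0 and never for a called one. Ctnnd1 at P14 was 0.0037 with DESeq2, 0.0043 with edgeR and 0.0031 with edgeR and the replicate block. Between days, Cdh2 in control was -0.0035 with TMM scaling and -0.013 with edgeR, Jup in control was -0.0086 and -0.0076, and Cdh2 in dMF1/2 was -0.019 with DESeq2 and -0.036 with edgeR. The interaction of Cdh2 was -0.029 and -0.023 with those tools. With 1 library left out, Cdh11 ran from -0.030 to 0.16, Ctnnd1 from -0.081 to 0.093 and Jup from -0.14 to 0.050 at P14. Between days in control Cdh2 ran from -0.20 to 0.27, Cdh11 from -0.11 to 0.011, Ctnna1 from -0.00085 to 0.087 and Jup from -0.080 to 0.11. In dMF1/2 Cdh2 ran from -0.31 to 0.41, Cdh11 from -0.17 to 0.0087, Cdh13 from -0.13 to 0.043 and Ctnnd1 from -0.046 to 0.13. The interaction ran from -0.33 to 0.39 for Cdh2 and from -0.12 to 0.072 for Cdh11, and the P14 ratio of Cdh3 to Cdh2 from -0.78 to 0.66. The cause of these moves was not tested. Cdh3 had as few as 10 reads in a library.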
